A study of Homo sapiens with 18 samples.

Results

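Forced expression of wild-type p53 (WTp53) was measured in 2 sets of arrays that were normalized apart, and the WTp53 effect of each set is described here beside that of the other. Of the 18 arrays of the series 12 were used, chosen by their titles: 3 WTp53 and 3 empty vector arrays from experiments 0, 4 and 5, called the first set, and as many of each from experiments d, e and f, called the second set. All 12 came from NCI-H1299, a non-small cell lung carcinoma line that lacks p53 of its own, so the vector arrays show cells without p53. Cells were transiently transfected with a pIRES-2EGFP plasmid, which marks the cells that took it up with green fluorescent protein and either carried WTp53 or was empty. Fluorescent cells were sorted, and RNA taken 40 hours after transfection was hybridized to Affymetrix Gene arrays. Transfections 0, 4 and 5 were independent of each other, according to the submitters. For d, e and f, named as controls, the preparation is not stated, so the p-values of the second set measure the spread between its arrays, which may be technical. This spread also enters the p-values that compare the sets.

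The p53 protein is a transcription factor that cells hold at a low level until DNA damage or other stress stabilises it. It binds DNA as a tetramer and switches on genes for cell cycle arrest, apoptosis, DNA repair and its own feedback control, and many cell cycle genes fall indirectly once the induced CDK inhibitor p21 halts the cycle. H1299 cells are often used to put p53 back because transfected p53 acts there without an endogenous copy.

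Values are log2 intensities. An effect is the mean of the WTp53 arrays minus the mean of the vector arrays of the same set, and the difference of effects is the effect of the first set minus that of the second. Levels were never compared between the sets. Effects were tested with limma, within a set on its own 6 arrays and for the difference on all 12, over 18417 genes whose probe set carries exactly 1 gene symbol. A gene is said to have risen, fallen or differed where its p-value, adjusted by Benjamini-Hochberg over all these genes, was below 0.05. Where a pair of effects is given for a gene, the first set comes first.

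As fitted, most of the genes that WTp53 changed in one set also changed in the other. In the first set 3176 genes rose (17.2%) and 3587 fell (19.5%), and in the second set 3437 rose (18.7%) and 3625 fell (19.7%). In both sets 2132 genes rose (11.6%) and 2549 fell (13.8%), while 75 were called in opposite directions (0.407%). The shared rises made up 67.1% of the rises of the first set and 62% of those of the second, and the shared falls made up 71.1% and 70.3% of the falls. With all 18 arrays in one fit 8052 genes changed in the first set, while 1576 rose and 1448 fell in both sets. With a spread shared by 12 arrays these were 8792, 1820 and 1950, and with at least 1.5-fold 3370, 656 and 382. In each of these alternatives most of the genes changed in the first set were not shared. Of the shared rises 247 were at least 2-fold in both sets, and of the shared falls 58 were. Across the 18417 genes, which are not independent replicates, the effects of the sets had a Pearson correlation of 0.788 and a Spearman correlation of 0.655.

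Among genes called in both sets, effects were mostly larger in the first set. Of the 4681 genes called in the same direction in both sets, 4332 (92.5%) had the larger absolute effect in the first, with a median of 0.71 there and 0.37 in the second set. The median SE of an effect was 0.0973 in the first set and 0.0476 in the second, so a call in the first needs a larger effect. Choosing genes called in both sets thus itself favours larger first-set effects, also in the factor of 1.7 below. The scale of the values also differed, since the interquartile range of the vector means over genes was 3.68 in the first set and 2.89 in the second. The part of this scale in the size of the effects was not tested. Differences between effects of like sign are therefore given also after the second set was multiplied by 1.28, the ratio of these ranges, and by 1.7, the ratio of the root mean square effects of the shared genes. Replicates lay further apart in the first set, where the median SD of a gene was 0.11 in WTp53 and 0.1 in vector arrays, against 0.049 and 0.056 in the second set.

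The difference of effects was called for 3704 genes (20.1%), of which 1743 (9.46%) were positive and 1961 (10.6%) negative. Most were differences of size: 1978 were genes called in the same direction in both sets with the larger effect in the first, and 15 were such genes with the larger effect in the second. A further 1208 genes were called in the first set only, 287 in the second only, 75 in opposite directions and 141 in neither. A call in one set alone was often no called difference, as for 799 of the 2007 genes called in the first set only and for 2019 of the 2306 called in the second only. With the second set scaled by interquartile ranges 2399 differences were called, and with the scaling by effect sizes 1674, of which 694 were positive and 980 negative.

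**Figure D1:**
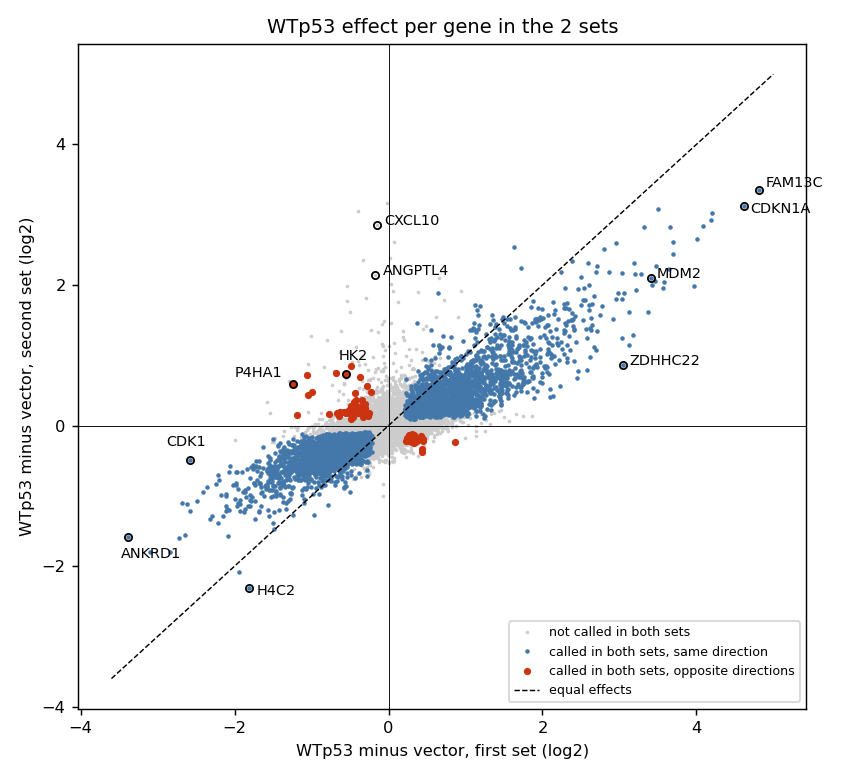
Each point is a gene, with its WTp53 minus vector effect (log2) in the first set on the x axis and in the second set on the y axis. The 4681 genes called in the same direction in both sets (blue) lie mostly closer to the x axis than the dashed line of equal effects, and the 75 genes called in opposite directions (red) lie in the upper left and lower right quadrants.

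CDKN1A, which encodes the CDK inhibitor p21, read 9.76, 10.00 and 9.92 in the WTp53 arrays of experiments 0, 4 and 5, against 5.86, 4.90 and 5.05 in their vector arrays. In experiments d, e and f CDKN1A read 11.72, 11.71 and 11.70 in WTp53 arrays, against 8.67, 8.44 and 8.63 in vector arrays. Every WTp53 array was above every vector array of its set. The CDKN1A effect was 4.62 ± 0.23 (SE, n = 3 against 3, limma adjusted p = 1.81e-05) in the first set and 3.13 ± 0.06 (limma adjusted p = 3.22e-07) in the second. The difference was 1.49 ± 0.26 (limma adjusted p = 0.0031), but it was 0.63 (adjusted p = 0.131) with the second set scaled by interquartile ranges and −0.68 (adjusted p = 0.131) with it scaled by effect sizes.

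MDM2, the ubiquitin ligase that marks p53 for degradation and is itself a p53 target, read 11.64, 11.62 and 11.61 in WTp53 arrays, against 8.38, 8.13 and 8.13 in vector arrays of the first set. In the second set MDM2 read 12.53, 12.58 and 12.58 in WTp53 arrays, against 10.53, 10.61 and 10.23 in vector arrays. The groups were apart in both sets, by 3.41 ± 0.09 (SE) in the first and 2.11 ± 0.09 in the second. The difference of 1.30 (limma adjusted p = 2.82e-04) turned to −0.17 with the second set scaled by effect sizes.

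The 12 shared rises that were largest in the weaker of both sets were led by FAM13C, a gene of unsettled function. It read 9.18, 9.41 and 9.46 in WTp53 arrays, against 4.43, 4.63 and 4.55 in vector arrays of the first set. FAM13C in the second set read 9.62, 9.70 and 9.62 in WTp53 arrays, against 6.41, 6.22 and 6.27 in vector arrays. Its effects were 4.82 ± 0.10 (SE, limma adjusted p = 7.42e-07) and 3.35 ± 0.06 (limma adjusted p = 2.75e-07).

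After FAM13C and CDKN1A came TP53INP1, a target in stress-induced cell death and autophagy, with effects of 3.498 and 3.09. CYFIP2, a subunit of the actin-regulating WAVE complex, rose by 4.20 and 3.02, and KITLG, the ligand of the KIT receptor, by 4.19 and 2.93. PDE3A, a cyclic nucleotide phosphodiesterase, rose by 4.08 and 2.85, and CCNA1, a cyclin best known from the germ line, by 3.66 and 2.83. SESN1, a stress-induced regulator of mTORC1, rose by 3.32 and 2.82, and RRAD, a small GTPase, by 4.00 and 2.65. SLC4A11, a membrane transporter, rose by 3.70 and 2.62, GDF15, a secreted factor of the TGF-beta family, by 2.96 and 2.60, and OSR2, a zinc finger transcription factor, by 2.79 and 2.52. Genes whose WTp53 and vector arrays overlapped in either set were not eligible.

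All 12 had the larger effect in the first set as deposited, yet all 12 had a negative difference once the second set was scaled by effect sizes. They were ranked by the smaller effect, here that of the second set, so the choice itself favours negative differences after this scaling. The difference of TP53INP1 was 0.41 (adjusted p = 0.116) and that of OSR2 was 0.28 (adjusted p = 0.26), and those of the other 10 were called. For FAM13C the difference passed in the positive direction with the scaling by interquartile ranges (0.55, adjusted p = 0.0166) and in the negative direction with that by effect sizes (−0.86, adjusted p = 0.00473).

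The 12 shared falls chosen in the same way were histone genes, zinc finger genes and 4 others. H4C2, which encodes histone H4, had effects of −1.81 ± 0.17 and −2.31 ± 0.13 (SE), and H3C7, which encodes histone H3, −1.95 ± 0.18 and −2.08 ± 0.15. H4C4 had effects of −1.49 and −1.47, and H2BC7, which encodes histone H2B, −2.21 and −1.39. The zinc finger genes were ZNF221 with −2.83 and −1.80, ZFP30 with −2.72 and −1.60, ZNF582 with −2.64 and −1.56, and the pseudogene ZNF542P with −1.73 and −1.33. ANKRD1, a target of YAP and TAZ in other cells, had −3.38 and −1.58, and CIART, a repressor of the circadian clock, −2.08 and −1.57. CALHM4, of the family of calcium homeostasis modulators, had −3.10 and −1.79, and ARL14, a small GTPase of the ARF family, −1.49 and −1.38. No difference was called for H4C2, H3C7, H4C4, CIART, ARL14 and ZNF542P, with adjusted p between 0.127 and 0.96.

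**Figure D2:**
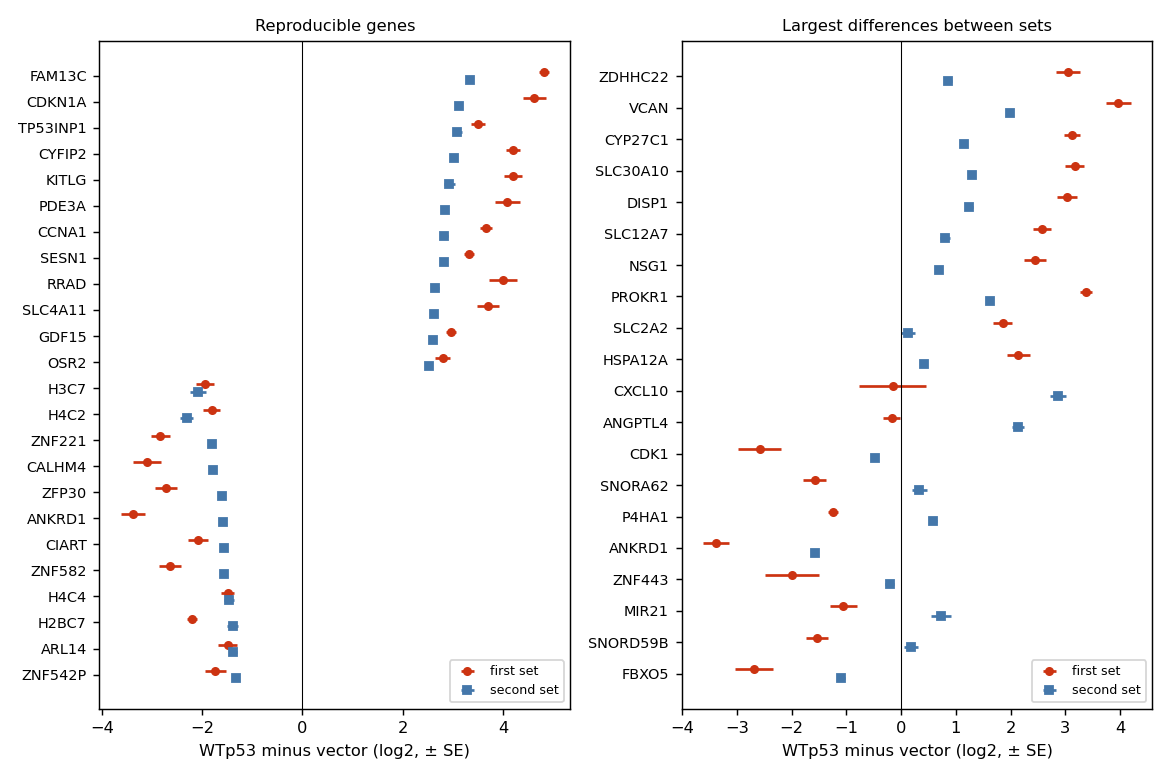
WTp53 minus vector effects (log2, ± SE, 3 arrays against 3) in the first set (circles) and the second set (squares) for the 12 largest shared rises and 12 largest shared falls (left) and the 10 most positive and 10 most negative differences (right). The shared genes fall on the same side of 0 in both sets. P4HA1, MIR21, the small nucleolar RNA genes SNORA62 and SNORD59B, CXCL10 and ANGPTL4 lie left of 0 in the first set and right of it in the second. In the first set CXCL10 and ANGPTL4 are close to 0.

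Known p53 targets were divided into 4 lists. These and all later gene lists were chosen with earlier results of these data known. Their counts, set beside the shares of all genes, describe the lists and are no independent test. For comparison, the median effect over all genes was 0.02 in the first set and −0.02 in the second, and the median difference 0.03. Of all genes 11.6% rose and 13.8% fell in both sets, and the difference was positive for 9.46% and negative for 10.6%. Of 29 measured genes of arrest and feedback, 21 rose in both sets, with a median effect of 0.79 in the first and 0.86 in the second. They included PPM1D, the phosphatase that turns p53 signalling off, with effects of 1.03 and 1.06, and PLK2, a kinase of the stress response, with 1.54 and 1.41, 2 genes picked after their values were seen. RCHY1, a ubiquitin ligase for p53, was the only member of the list to fall in both sets, with −0.42 and −0.20. The difference was positive for 10 of the 29 and negative for 0.

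Of 24 apoptosis genes 19 rose in both sets, with a median effect of 1.2 in the first set and 0.68 in the second. TP53I3, an oxidoreductase linked to oxidative stress, rose by 3.70 and 2.45, SUSD6, a membrane protein induced by DNA damage, by 3.21 and 1.93, and AIFM2, a ferroptosis suppressor also called FSP1, by 1.99 and 0.69. The AIFM2 difference of 1.29 ± 0.15 (SE, limma adjusted p = 4.80e-04) was among the clearest of the list. CASP8, the initiator caspase of death receptors, was the only member to fall in both sets, with −0.67 and −0.21. The difference was positive for 15 of the 24 and negative for 2, the other being BCL2L1, an inhibitor of apoptosis, which had −0.35 (adjusted p = 0.0507) in the first set and 0.20 in the second.

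Of 26 genes of DNA repair and metabolism 15 rose in both sets and 2 fell, with median effects of 0.68 and 0.45. DRAM1, a lysosomal protein of autophagy, rose by 2.31 and 1.75, PANK1, an enzyme of coenzyme A synthesis, by 1.97 and 1.09, and FBXO22, a ubiquitin ligase subunit, by 0.95 and 0.46. POLK, a translesion DNA polymerase, fell in both sets with −1.30 ± 0.15 and −0.24 ± 0.04 (SE), a called difference of −1.06 (limma adjusted p = 0.00204). Of 32 genes of membrane, adhesion and signalling 21 rose in both sets and 0 fell, with median effects of 0.82 and 0.80. JAG2, a Notch ligand, rose by 3.58 and 2.04, TGFA, an EGF receptor ligand, by 1.92 and 0.88, and KANK3, a cytoskeletal adaptor, by 0.79 and 0.18.

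Over these 4 lists the called differences were positive for 10, 15, 10 and 16 genes and negative for 0, 2, 2 and 2, in the order given. With the second set scaled by interquartile ranges the positive counts were 4, 5, 2 and 5 and the negative counts 2, 1, 3 and 3. With it scaled by effect sizes they were 0, 2, 0 and 1, and the negative counts were 11, 5, 10 and 5. The factor of that scaling was computed on the shared genes, with large effects weighing most, and the shared rises of these lists were among them. The loss of positive differences under it was thus partly built in. Without the WTp53 array of experiment d or of experiment e 9 apoptosis genes were positive, and 5 repair genes were positive without the WTp53 or the vector array of experiment d and 6 without the WTp53 array of experiment 4. The counts of shared rises use no scale between the sets.

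AEN, a nuclease induced by p53 in apoptosis and a member of the apoptosis list, is shown because its promoter carries a match to the p53 consensus and it rose in both sets; it was chosen after its values were seen. It read 8.46, 8.28 and 8.33 in WTp53 arrays, against 6.84, 6.78 and 6.79 in vector arrays of the first set, and 10.15, 10.18 and 10.17 in WTp53 arrays, against 9.23, 9.09 and 9.13 in vector arrays of the second. The groups were apart in both sets, with effects of 1.55 ± 0.08 and 1.02 ± 0.04 (SE). The stretch lies upstream of the gene's start at chr15:88621240-88621339 on the plus strand (RefSeq, GRCh38.p14). Capitals mark both decamers of the consensus, with 2 mismatches and no spacer, the first base 34 bases before the start.
AEN: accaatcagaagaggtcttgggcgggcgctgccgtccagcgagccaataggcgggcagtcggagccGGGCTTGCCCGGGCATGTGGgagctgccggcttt
Searched on both strands in the 250 bases before the start, with at most 2 mismatches in the 2 decamers together and a spacer of at most 13 bases, this consensus was found in 321 of 14239 promoters (2.25%). It was found in 7 of the 196 promoters of genes that rose at least 2-fold in both sets (3.57%). No match says only that these letters are not in this window.

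**Figure D3:**
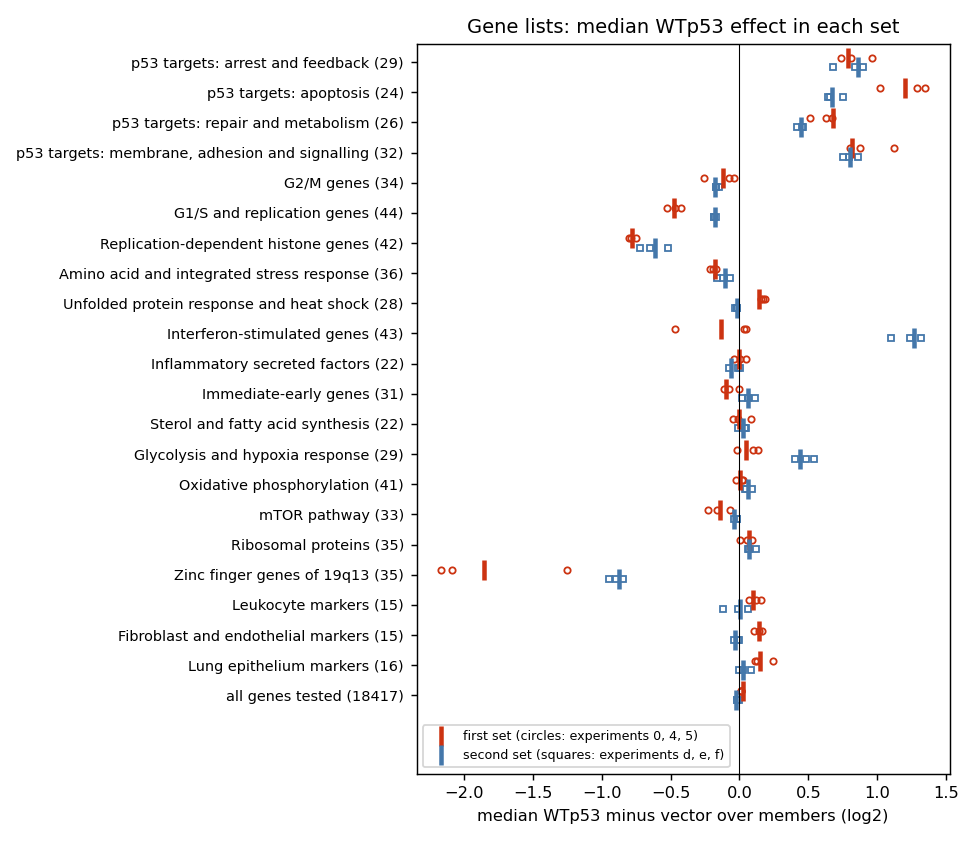
Median WTp53 minus vector effect (log2) over the members of each list, with the number measured in brackets; vertical ticks give the median of the mean effects and open symbols the medians within experiments 0, 4 and 5 (circles) and d, e and f (squares). The p53 target lists lie right of 0 and the histone and 19q13 zinc finger lists left of 0 in both sets, while the interferon-stimulated genes stand at −0.14 in the first set and 1.27 in the second.

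Of 44 measured G1/S and replication genes, which prepare and copy DNA, 22 fell in both sets and 3 rose, against 13.8% and 11.6% of all genes, and 19 did neither. The number of falls was 30 in the first set and 27 in the second, but 21 and 3 with all 18 arrays in one fit, so at most 3 fell in both there. As fitted, the median effect was −0.47 in the first set and −0.18 in the second. CCNE2, a cyclin that partners CDK2, had −1.49 ± 0.13 and −0.57 ± 0.03 (SE, difference −0.91, limma adjusted p = 0.00149), and MCM10, a replication initiation factor, −0.85 and −0.25. RFC5, a subunit of the clamp loader, had −0.61 and −0.26, and UHRF1, which recruits the maintenance DNA methyltransferase, −0.67 in the first set and −0.14 (adjusted p = 0.0581) in the second. FBXO5, the inhibitor of the anaphase-promoting complex also called EMI1, had −2.68 and −1.10. CCNE1, the related cyclin, was the largest rise of the list, with 1.01 and 0.88. The difference was negative for 15 of the 44 and positive for 0, against 10.6% and 9.46% of all genes. It was negative for 10 and 4 with the second set scaled by interquartile ranges and by effect sizes. With all 18 arrays in one fit 1 of the 44 was negative, and 24 were without the WTp53 array of experiment 0 or without both of its arrays.

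Of 42 replication-dependent histone genes, which package the copied DNA, 32 fell in both sets and 1 rose, against 13.8% and 11.6% of all genes. Their median effect was −0.78 in the first set and −0.62 in the second, and the medians within experiments were −0.79, −0.75 and −0.80 for 0, 4 and 5 and −0.65, −0.52 and −0.73 for d, e and f. H2BC11 was the exception, with 0.79 ± 0.12 and 0.76 ± 0.05 (SE). H4C4 read 6.55, 6.53 and 6.46 in WTp53 arrays, against 7.87, 8.29 and 7.85 in vector arrays of the first set, and 9.63, 9.56 and 9.56 in WTp53 arrays, against 10.93, 10.93 and 11.31 in vector arrays of the second. WTp53 arrays were below all vector arrays in both sets, with effects of −1.49 and −1.47. The difference of the histone list was positive for 2 and negative for 12 of the 42, against 9.46% and 10.6% of all genes. It was positive for 10 and negative for 1 with the second set scaled by effect sizes. The counts were 5 and 3 with it scaled by interquartile ranges, and 2 and 4 with all 18 arrays in one fit. H4C1, a further histone H4 gene, had a positive difference, with −0.08 (adjusted p = 0.51) in the first set and −0.83 in the second. Histone genes of one family are nearly identical in sequence, and how far their probe sets share signal was not tested.

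The mitotic genes were less uniform. Of 34 G2/M genes 12 fell and 5 rose in the first set, 18 fell and 1 rose in the second, and 11 fell in both, against 13.8% of all genes. With all 18 arrays in one fit 6 fell in the first set and 2 in the second, so at most 2 fell in both. The difference was positive for 4 and negative for 3 of the 34, near the 9.46% and 10.6% of all genes, so these counts do not set the list apart. They were 0 and 0 with all 18 arrays in one fit, and 10 and 5 without experiment 0. Leaving out 1 array gave 0 to 7 positive differences, with 0 lacking the vector array of experiment e and 7 that of experiment 0. CDK1, the mitotic kinase, had the largest difference of the list. It read 6.44, 4.80 and 4.90 in WTp53 arrays, against 8.20, 7.79 and 7.91 in vector arrays of the first set, and 8.25, 8.37 and 8.19 in WTp53 arrays, against 8.87, 8.65 and 8.75 in vector arrays of the second. The groups did not overlap in either set, and the fall was −2.58 ± 0.39 in the first set and −0.49 ± 0.07 in the second (SE, difference −2.10 ± 0.45, limma adjusted p = 0.00789). It was −1.76 (adjusted p = 0.0318) with the second set scaled by effect sizes and missed the threshold with all 18 arrays in one fit (adjusted p = 0.0544). UBE2C, the ubiquitin-conjugating enzyme of the anaphase-promoting complex, had −1.36 in the first set and −0.08 (adjusted p = 0.18) in the second. TOP2A, topoisomerase II alpha, had −1.72 and −0.57. KIF20A, a kinesin of cytokinesis, was among the 4 positive differences, with 0.37 in the first set and −0.02 (adjusted p = 0.795) in the second. CENPE, a kinetochore kinesin, had −0.68 and −0.79 with no called difference (adjusted p = 0.549).

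Zinc finger genes of the 19q13 region, most of which encode KRAB-type repressors, fell together in both sets. Of 35 measured genes 31 fell in both sets and 0 rose in both, against 13.8% and 11.6% of all genes. The list was chosen with earlier results of these data known, so this contrast is no independent test. Their median effect was −1.86 in the first set and −0.87 in the second. ZNF221 read 6.17, 5.99 and 6.01 in WTp53 arrays, against 8.41, 9.11 and 9.15 in vector arrays of the first set, and 7.69, 7.70 and 7.90 in WTp53 arrays, against 9.56, 9.58 and 9.55 in vector arrays of the second. ZNF155, picked after its values were seen, had effects of −1.79, −2.97 and −3.11 in experiments 0, 4 and 5 and −1.10, −1.18 and −1.08 in d, e and f. The list's median within experiment 0 was −1.25, against −2.09 and −2.17 in 4 and 5. The difference was negative for 24 of the 35 as deposited, against 10.6% of all genes. It was negative for 10 with the second set scaled by interquartile ranges, for 2 with it scaled by effect sizes and for 12 after joint quantile normalization. ZNF285, with −1.47 in the first set and −0.18 (adjusted p = 0.119) in the second, had a difference of −1.30 ± 0.20 (SE, limma adjusted p = 0.00177). These genes share long stretches of sequence, and how far their probe sets share signal was not tested.

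Interferon-stimulated genes (ISGs), the antiviral genes that type I interferon induces, were called as rises with WTp53 in the second set and, as fitted, in no case in the first. Of 43 measured ISGs, 37 rose and 0 fell in the second set, with a median effect of 1.27, while 0 rose and 1 fell in the first, with a median of −0.14. Of all genes 18.7% rose and 19.7% fell in the second set, and 17.2% rose and 19.5% fell in the first. With all 18 arrays in one fit 8 rose in the second set, and without the vector array of experiment 0 6 rose and 0 fell in the first. CXCL10 and IFIT1 are shown because they stand for the list's secreted and intracellular members and their promoters hold the interferon-stimulated response motif, GAAA and GAAA with 2 free bases between them. IFIT1 was picked after its values were seen. Both stretches lie upstream of the start (RefSeq, GRCh38.p14), CXCL10 at chr4:76023648-76023747 on the minus strand and IFIT1 at chr10:89392468-89392567 on the plus strand, and capitals mark the motif on either strand.
CXCL10: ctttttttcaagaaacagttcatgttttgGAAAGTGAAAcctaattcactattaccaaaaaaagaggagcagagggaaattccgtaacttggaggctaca
IFIT1: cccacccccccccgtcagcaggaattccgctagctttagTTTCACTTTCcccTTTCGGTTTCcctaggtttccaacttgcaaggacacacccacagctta
Searched on both strands in the 250 bases before the start, the motif was found in 18 of 34 ISG promoters (52.9%) and in 366 of 14239 promoters of all measured genes (2.57%).

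CXCL10, a chemokine that draws T cells, read 4.37, 2.67 and 2.92 in WTp53 arrays, against 4.80, 2.94 and 2.69 in vector arrays of experiments 0, 4 and 5. In experiments d, e and f CXCL10 read 7.70, 8.15 and 7.85 in WTp53 arrays, against 5.04, 4.81 and 5.27 in vector arrays. The groups overlapped in the first set and were apart in the second. The effect was −0.15 ± 0.61 (SE, limma adjusted p = 0.876) in the first set and 2.86 ± 0.14 (limma adjusted p = 8.55e-06) in the second, a difference of −3.01 ± 0.71 (limma adjusted p = 0.012). It was −3.80 and −5.00 with the second set scaled by interquartile ranges and by effect sizes. It missed the threshold with all 18 arrays in one fit (adjusted p = 0.0671) and passed in the other alternatives in which it was tested.

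In the first set experiment 0 stood apart in both arms. The mean over the 43 ISGs was 7.73 in its WTp53 array, against 8.23 in its vector array, while it was 6.15 and 6.16 in the WTp53 arrays of experiments 4 and 5, against 6.14 and 6.04 in their vector arrays. In the second set this mean was 8.87, 8.99 and 8.90 in WTp53 arrays, against 7.76, 7.65 and 7.66 in vector arrays. Within experiments the median ISG effect was −0.47, 0.04 and 0.03 for 0, 4 and 5 and 1.10, 1.32 and 1.24 for d, e and f. As fitted, 3 of the 43 ISGs (CXCL10, CXCL11 and IRF9) had a called difference, all negative, against 10.6% of all genes with a negative difference. With the experiment label as a block 30 did, and without both arrays of experiment 0 33 did, again all negative. Leaving out only the WTp53 array of experiment 0 gave 17, leaving out any other single array gave 1 to 3, and with all 18 arrays in one fit 0 were called. With the block 2 ISGs rose and 12 fell in the first set, and without experiment 0 10 rose and 9 fell.

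IFI44L, an interferon-induced gene picked after its values were seen, read 8.45, 4.55 and 4.21 in WTp53 arrays, against 9.06, 4.88 and 4.47 in vector arrays of the first set, and 9.85, 10.03 and 9.81 in WTp53 arrays, against 7.10, 6.70 and 6.71 in vector arrays of the second. Experiment 0 was high in both arms, and within each first-set experiment WTp53 was below vector. The IFI44L difference was −3.46 with adjusted p = 0.153 as fitted, 5.27e-05 with the block and 3.62e-06 without experiment 0 (limma). CCL5, another chemokine picked afterwards, had effects of −0.02 ± 1.10 and 3.16 ± 0.14 (SE), and its difference had adjusted p of 0.0956 as fitted and 5.05e-05 with the block (limma). IFIT1, a sensor of viral RNA ends, had effects of −0.47, −0.22 and −0.20 in experiments 0, 4 and 5 and of 1.73, 1.94 and 1.78 in d, e and f.

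IRF9, a transcription factor of the interferon response, was the one ISG to fall in the first set. It read 7.82, 6.73 and 6.85 in WTp53 arrays, against 8.58, 8.02 and 7.94 in vector arrays of the first set, and 9.22, 9.25 and 9.35 in WTp53 arrays, against 9.21, 8.95 and 9.08 in vector arrays of the second. The groups were apart in both sets, but the second-set effect of 0.19 ± 0.07 (SE) missed the threshold (limma adjusted p = 0.0674), against −1.05 ± 0.29 (limma adjusted p = 0.0233) in the first. CXCL11, a further chemokine of the list, had −0.08 (adjusted p = 0.90) and 1.45. The IRF9 and CXCL11 calls were lost in several fits that left out 1 array, with adjusted p of up to 0.0596 for IRF9 without the vector array of experiment e and 0.0885 for CXCL11 in the same fit.

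**Figure D4:**
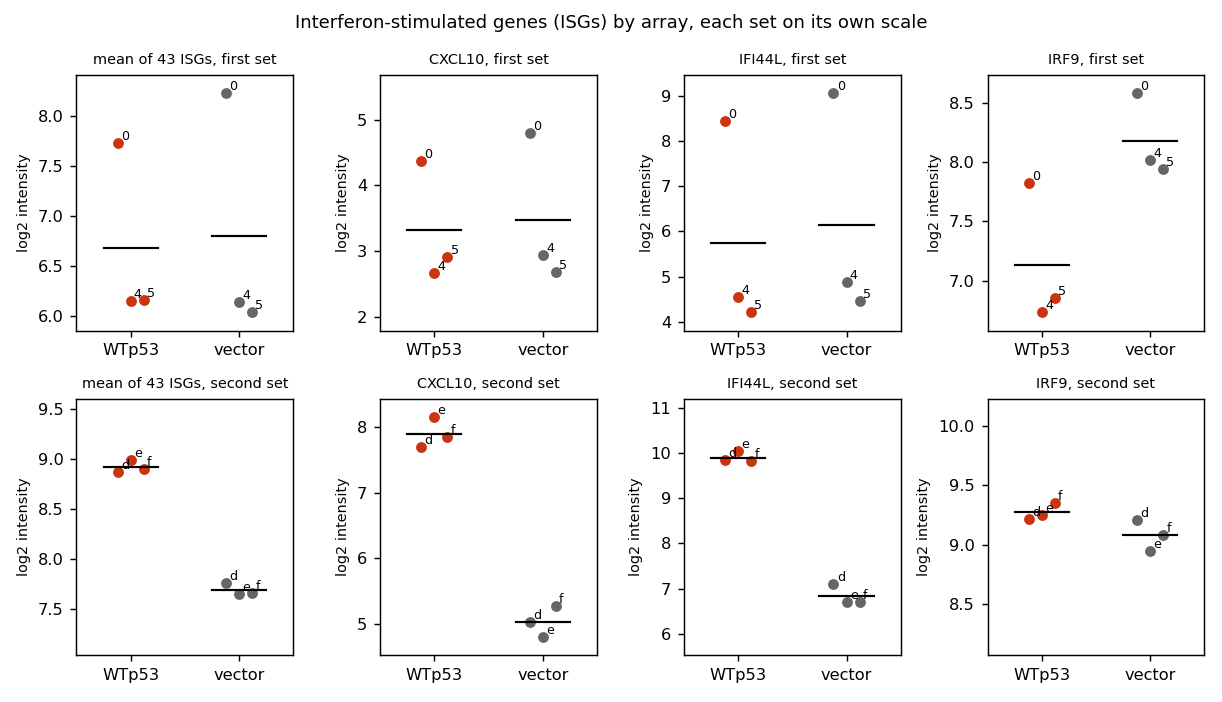
Log2 intensity by array for the mean of 43 interferon-stimulated genes, CXCL10, IFI44L and IRF9, with WTp53 left of vector, the first set above (experiments 0, 4 and 5) and the second set below (d, e and f); lines are group means, and each set keeps its own scale. Experiment 0 is high in both arms of the first set, and the WTp53 arrays of the second set are above its vector arrays.

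Genes of glycolysis and the hypoxia response, many of them induced by HIF1 through the hypoxia-response core ACGTG, were also called mostly in the second set. Of 29 measured genes 24 rose and 1 fell in the second set, while 3 rose and 5 fell in the first, against 18.7% and 19.7% of all genes in the second and 17.2% and 19.5% in the first. The first-set counts became 8 and 4 without the vector array of experiment 0, 8 and 3 without both arrays of experiment 0, and 8 and 5 with all 18 arrays in one fit. The median effect was 0.05 in the first set and 0.44 in the second, and within experiments it was −0.02, 0.14 and 0.10 for 0, 4 and 5 and 0.40, 0.54 and 0.48 for d, e and f. The difference was negative for 12 of the 29 and positive for 1, against 10.6% and 9.46% of all genes. The positive one was PFKFB3, a regulator of glycolysis picked after its values were seen, with 1.72 and 0.76. The negative count was 13 and 16 with the second set scaled by interquartile ranges and by effect sizes, 13 with the block, 15 without experiment 0 and 9 with all 18 arrays in one fit. Leaving out 1 array gave 8 to 14.

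P4HA1 and HK2 are shown because they were called in opposite directions and hold the core in their promoters. The stretches lie upstream of the start (RefSeq, GRCh38.p14), P4HA1 at chr10:73096901-73097000 on the minus strand and HK2 at chr2:74833877-74834126 on the plus strand, and capitals mark the core on either strand.
P4HA1: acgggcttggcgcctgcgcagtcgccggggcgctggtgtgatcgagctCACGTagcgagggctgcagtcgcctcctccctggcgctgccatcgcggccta
HK2: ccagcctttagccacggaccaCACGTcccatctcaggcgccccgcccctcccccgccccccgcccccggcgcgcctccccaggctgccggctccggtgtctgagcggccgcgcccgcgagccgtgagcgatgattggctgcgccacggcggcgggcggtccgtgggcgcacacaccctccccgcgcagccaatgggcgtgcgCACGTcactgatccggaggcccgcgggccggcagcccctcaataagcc
The core was found in 12 of 25 promoters of the list (48%) and in 3001 of 14239 promoters of all measured genes (21.1%), searched on both strands in the 250 bases before the start. It overlaps itself in CACGTG, which matches on both strands and marks an E-box, so these letters alone name no factor.

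P4HA1, a collagen prolyl hydroxylase subunit, read 7.57, 7.53 and 7.33 in WTp53 arrays, against 8.67, 8.71 and 8.79 in vector arrays of the first set. P4HA1 in the second set read 9.77, 10.04 and 9.84 in WTp53 arrays, against 9.34, 9.30 and 9.25 in vector arrays. All WTp53 arrays were below all vector arrays in the first set and above them in the second. The effects were −1.25 ± 0.09 and 0.59 ± 0.07 (SE), and the difference was −1.83 ± 0.11 (limma adjusted p = 2.70e-05).

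HK2, the hexokinase that starts glycolysis in many tumours, read 7.83, 7.49 and 7.31 in WTp53 arrays, against 8.14, 8.04 and 8.09 in vector arrays of the first set. HK2 in the second set read 10.31, 10.42 and 10.15 in WTp53 arrays, against 9.56, 9.54 and 9.58 in vector arrays. The groups did not overlap in either set, and the effects were −0.55 ± 0.13 and 0.73 ± 0.07 (SE, difference −1.28, limma adjusted p = 5.70e-04). PDK1, the kinase that keeps pyruvate out of the mitochondrion, read 6.79, 6.98 and 6.65 in WTp53 arrays, against 7.498, 7.16 and 7.22 in vector arrays of the first set. PDK1 in the second set read 9.80, 9.92 and 9.76 in WTp53 arrays, against 9.05, 8.92 and 8.98 in vector arrays. It too was lower in the first set and higher in the second, by −0.49 ± 0.12 and 0.84 ± 0.05 (SE, difference −1.33, limma adjusted p = 3.30e-04). KDM3A, a histone demethylase picked after its values were seen, was the fourth member called in opposite directions, with −0.23 and 0.48.

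The other members with a called negative difference had no called fall in the first set. ANGPTL4, a secreted inhibitor of lipoprotein lipase induced by hypoxia but outside the list, read 5.71, 5.62 and 5.67 in WTp53 arrays, against 6.14, 5.93 and 5.46 in vector arrays of the first set, and 10.60, 10.88 and 10.48 in WTp53 arrays, against 8.37, 8.59 and 8.58 in vector arrays of the second. The groups overlapped in the first set, with an effect of −0.17 ± 0.16, and were apart in the second, with 2.14 ± 0.11 (SE, difference −2.31, limma adjusted p = 2.11e-04). BNIP3L, a mitophagy receptor, had −0.07 (adjusted p = 0.603) and 0.78. The glucose transporter SLC2A1 had 0.27 (adjusted p = 0.109) and 0.86, and NDRG1, a stress-induced gene, rose in both sets with 0.48 and 0.95; both were picked after their values were seen. ADM, the vasodilator peptide adrenomedullin, rose in both sets with no called difference, by 1.11 ± 0.11 and 1.14 ± 0.05 (SE, 95% interval of the difference −0.29 to 0.22). PFKM, the muscle phosphofructokinase, was the one member to fall in both sets, with −0.66 and −0.34.

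**Figure D5:**
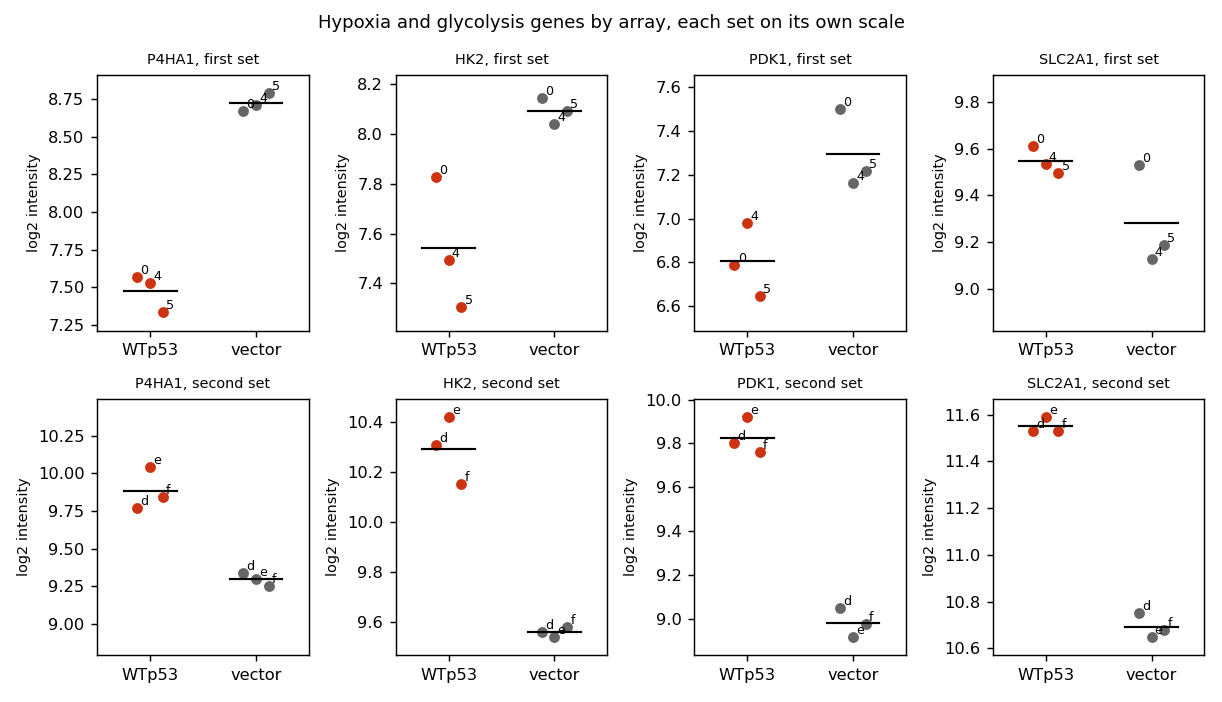
Log2 intensity by array for P4HA1, HK2, PDK1 and SLC2A1, with WTp53 left of vector, the first set above (experiments 0, 4 and 5) and the second set below (d, e and f); lines are group means, and each set keeps its own scale. For P4HA1, HK2 and PDK1 the WTp53 arrays lie below the vector arrays in the first set and above them in the second.

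Direction does not depend on a factor between the scales, so the 75 genes called in opposite directions stand apart from the differences of size. Of these 51 fell in the first set and rose in the second (0.277% of genes) and 24 rose in the first and fell in the second (0.13%). With the experiment label as a block 120 were called in opposite directions, with an effect of at least 1.5-fold in both sets 3 were, and leaving out 1 array gave 37 to 107. Besides P4HA1, HK2 and PDK1 the largest were MIR21, TCP11L2 and the small nucleolar RNA genes SNORA7B, SNORA3A and SNORD105.

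MIR21 holds the precursor of miR-21, an abundant miRNA of many tumours, whose mature 5p sequence is shown with its seed (bases 2 to 8) in capitals at chr17:59841273-59841294 on the plus strand (RefSeq, GRCh38.p14). The labels do not say whether the probe set reports the mature or a longer RNA.
hsa-miR-21-5p: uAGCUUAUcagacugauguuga
MIR21 read 4.57, 5.38 and 5.50 in WTp53 arrays, against 5.998, 6.04 and 6.58 in vector arrays of the first set, and 6.89, 7.43 and 7.53 in WTp53 arrays, against 6.30, 6.70 and 6.68 in vector arrays of the second. The groups were apart in both sets and in opposite order. The effects were −1.05 ± 0.26 (SE, limma adjusted p = 0.0125) and 0.72 ± 0.18 (limma adjusted p = 0.0158), and the difference was −1.78 (limma adjusted p = 0.00494).

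TCP11L2, a gene of little known function, read 5.18, 5.06 and 4.73 in WTp53 arrays, against 5.87, 5.49 and 5.66 in vector arrays of the first set, and 7.13, 7.47 and 7.39 in WTp53 arrays, against 6.48, 6.58 and 6.68 in vector arrays of the second. It was lower in all WTp53 arrays of the first set and higher in all of the second, by −0.68 and 0.75. SNORA3A had effects of −1.05 ± 0.08 and 0.44 ± 0.06, SNORA7B −0.996 ± 0.15 and 0.48 ± 0.09, and SNORD105 −0.43 ± 0.13 and 0.47 ± 0.13 (SE). SNORA and SNORD genes guide the chemical modification of ribosomal RNA and lie within introns of host genes.

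The 10 most positive differences were genes that rose far more in the first set. ZDHHC22, a palmitoyltransferase, read 6.39, 6.95 and 7.13 in WTp53 arrays, against 3.42, 4.05 and 3.85 in vector arrays of the first set, and 7.38, 7.38 and 7.61 in WTp53 arrays, against 6.63, 6.68 and 6.49 in vector arrays of the second. It rose in both sets, by 3.05 ± 0.22 and 0.86 ± 0.08 (SE, difference 2.20, limma adjusted p = 5.21e-04). VCAN, a matrix proteoglycan, rose by 3.97 and 1.99, CYP27C1, a retinoid-desaturating enzyme, by 3.12 and 1.14, and SLC30A10, a manganese exporter, by 3.17 and 1.29. DISP1, which releases Hedgehog ligands, rose by 3.03 and 1.25, SLC12A7, a potassium-chloride cotransporter, by 2.57 and 0.79, and NSG1, a neuronal endosomal protein, by 2.44 and 0.68. PROKR1, a prokineticin receptor, rose by 3.38 and 1.62, and HSPA12A, a distant member of the HSP70 family, by 2.14 and 0.42. SLC2A2, the glucose transporter GLUT2, rose by 1.86 ± 0.17 in the first set and had 0.13 ± 0.13 (SE, limma adjusted p = 0.461) in the second. Some of these genes started from a low signal. CYP27C1 averaged 3.99 in vector arrays of the first set, where the means of fibroblast and endothelial markers were 3.82 to 3.87. In vector arrays of the second set it averaged 6.18, against 5.96 to 5.98 for these markers. How far a low signal limits the rises of either set was not tested. Apart from VCAN, which missed the threshold with the second set scaled by effect sizes (0.60, adjusted p = 0.188), the 10 genes stayed positive and called under both scalings and joint quantile normalization. They were chosen for the largest differences on the same arrays, so keeping the call adds no support.

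Among the 10 most negative differences, those of CXCL10, ANGPTL4, P4HA1, MIR21, CDK1, SNORA62 and SNORD59B were called under these same 3 alternatives. These genes too were chosen for the size of their differences on the same arrays, so this adds no support. SNORA62 had −1.58 in the first set and 0.33 (adjusted p = 0.085) in the second, and SNORD59B −1.54 and 0.18 (adjusted p = 0.311). ANKRD1 and FBXO5, which fell in both sets, missed the threshold with the second set scaled by effect sizes (adjusted p = 0.125 and 0.201). ZNF443, with −2.00 ± 0.50 in the first set and −0.21 ± 0.08 (SE) in the second, did so under both scalings and in most fits without 1 array.

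The unfolded protein response, which raises chaperones of the endoplasmic reticulum, had more called rises in the first set. Of 28 genes of this response and of heat shock, 12 rose and 2 fell in the first set, against 5 and 8 in the second. Over all genes 17.2% rose and 19.5% fell in the first set, and 18.7% and 19.7% in the second, so the 5 rises of the second set are near the share of all genes. The 8 falls of the second set became 2 with all 18 arrays in one fit. The difference was positive for 11 and negative for 0, against 9.46% and 10.6% of all genes. The count of positive differences was 11 and 8 with the second set scaled by interquartile ranges and by effect sizes, and 14 without experiment 0, where 3 were negative. HYOU1, a chaperone of the endoplasmic reticulum, read 8.82, 8.81 and 8.71 in WTp53 arrays, against 8.11, 8.07 and 8.14 in vector arrays of the first set, and 9.67, 9.68 and 9.75 in WTp53 arrays, against 9.81, 9.80 and 9.80 in vector arrays of the second. The groups were apart in both sets, with an effect of 0.68 ± 0.07 in the first and of −0.10 ± 0.04 (SE, limma adjusted p = 0.0564) in the second, a difference of 0.78 (limma adjusted p = 2.11e-04). PDIA4, a protein disulfide isomerase, had 0.84 and 0.10 (adjusted p = 0.188), CRELD2, a secreted stress marker, 0.54 and 0.00 (adjusted p = 0.947), and EDEM1, which directs misfolded glycoproteins to degradation, 1.48 and 0.65. HSPB1, a small heat shock protein, rose by 1.18 and 0.82, and ATF6, a sensor of the response, had −0.67 and −0.53, neither with a called difference.

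Amino acid and integrated stress response genes, which ATF4 controls, fell in both sets for 13 of 36 and rose in both for 4, against 13.8% and 11.6% of all genes. CTH, an enzyme of cysteine synthesis, had −1.66 and −0.82, PCK2, mitochondrial PEP carboxykinase, −1.15 and −0.55, and DDIT3, the transcription factor CHOP, −1.68 and −1.21. CHAC1, which degrades glutathione, had −0.56 in the first set and −0.04 (adjusted p = 0.465) in the second. ALDH1L2, a mitochondrial folate enzyme, was a rise, with 2.24 and 1.18, and VLDLR, a lipoprotein receptor, had opposite calls, with −0.35 and 0.36. The difference was positive for 7 and negative for 10 of the 36, against 9.46% and 10.6% of all genes. The positive count fell to between 2 and 4 in 9 of the 12 fits without 1 array.

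Of 33 mTOR pathway genes 5 rose and 7 fell in both sets, not far from the 11.6% and 13.8% of all genes. DDIT4, an inhibitor of mTORC1 also called REDD1, rose by 1.11 and 1.37, and STK11, the kinase LKB1 upstream of AMPK, by 0.91 and 0.49. RICTOR, a subunit of mTORC2, had −1.36 and −0.47, and PRKAA2, a catalytic subunit of AMPK, −1.13 and −0.77. RRAGB and LAMTOR3, which place mTORC1 on the lysosome, fell in the first set only, with −0.87 against −0.09 (adjusted p = 0.252) and −0.76 against −0.09 (adjusted p = 0.138). Their differences were called, with limma adjusted p of 0.00439 and 0.0103.

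Of 31 immediate-early genes, which growth signals switch on within minutes, 7 rose and 7 fell in both sets, against 11.6% and 13.8% of all genes. NR4A2, an orphan nuclear receptor, rose by 1.32 and 1.45, whereas its relative NR4A1 rose by 0.77 in the first set and had 0.06 (adjusted p = 0.299) in the second. DUSP6, a phosphatase of ERK, had opposite calls, with −0.42 and 0.37 (difference −0.79, limma adjusted p = 4.80e-04), and KLF10, a zinc finger factor, had −0.83 and −0.21. Of 22 inflammatory secreted factors and their regulators 1 rose and 3 fell in both sets. LIF, a cytokine, rose by 1.09 and 1.36, and the NF-kappaB inhibitors NFKBIA and TNFAIP3 had −1.69 and −0.50, and −1.47 and −0.68. IGFBP7 rose in the first set by 0.33 and had −0.10 (adjusted p = 0.157) in the second.

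Few metabolic and ribosomal genes were called in both sets, where 11.6% of all genes rose and 13.8% fell. Of 41 oxidative phosphorylation genes 4 rose and 3 fell in both sets. For 2 the difference was positive and for 2 negative, against 9.46% and 10.6% of all genes. SDHA, the flavoprotein of complex II, rose by 0.94 and 0.44, and NDUFS1, of complex I, had −0.62 and −0.35. Of 22 sterol and fatty acid genes 1 rose and 1 fell in both, LSS, an enzyme of cholesterol synthesis, with 0.35 and 0.23, and ELOVL6, a fatty acid elongase, with −0.33 and −0.16. Of 35 ribosomal protein genes 3 rose in both and 1 difference was called, that of RPL32, with −0.58 in the first set and 0.07 (adjusted p = 0.358) in the second.

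Markers of other cell types were mostly not called. Over 15 leukocyte markers the mean level was 4.59 to 4.65 in WTp53 arrays, against 4.52 to 4.59 in vector arrays of the first set, and 6.80 to 6.84 against 6.79 to 6.85 in the second. Over 16 lung epithelium markers it was 5.11 to 5.18 in WTp53 arrays, against 4.84 to 5.03 in vector arrays of the first set, and 7.19 to 7.27 against 7.15 to 7.19 in the second. Over 15 fibroblast and endothelial markers it was 3.97 to 4.01 in WTp53 arrays, against 3.82 to 3.87 in vector arrays of the first set, and 5.94 to 5.98 against 5.96 to 5.98 in the second. The lung epithelium and the fibroblast and endothelial means were thus apart in the first set, with WTp53 higher. The part of these shifts in the results was not tested. The difference was called for 1 of 15 leukocyte markers (TYROBP), 1 of 15 fibroblast and endothelial markers (KDR) and 1 of 16 lung epithelium markers (SFTPC), all positive. Over all genes it was positive for 9.46% and negative for 10.6%, so these counts do not set the markers apart. SFTPC, a surfactant protein of alveolar cells, had an effect of 1.33 ± 0.14 in the first set and 0.17 ± 0.07 (SE, limma adjusted p = 0.119) in the second. All arrays came from sorted cells of a single line, and in such bulk samples a change in some cells and a change in all cells cannot be told apart.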

How the data were processed

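RNA from 12 of 18 arrays is described, 3 each of WTp53 and vector in both sets, a number that limits how precise an effect can be. The log2 intensities were deposited by the authors after RMA in Affymetrix Expression Console, per the submitters' processing notes, in versions not given in the sources used here. RMA corrects the background, quantile normalizes the arrays processed together and gives a summary per probe set. Array medians over genes ran from 5.73 to 5.81 in experiments 0, 4 and 5 and from 7.66 to 7.72 in d, e and f, which shows that the sets were processed apart.

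Of 33297 probe sets 19460 carry 1 symbol in the platform annotation, 1754 several, and 12083 are not listed there. Where a gene had more than 1 probe set (769 genes), the brightest on average was kept, leaving 18417 genes; 18389 were found in the RefSeq table by gene ID, and 0 symbols changed. The probe set of the transfected gene is not reported here.

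In R 4.3.3, limma 3.58.1 was fitted with a mean per group, to 12 arrays for the difference (8 residual degrees of freedom) and to 6 per set for the effects (4), two-sided. The fit of the difference pools the spread of all groups, which was mostly larger in the first set. Its degrees of freedom may thus overstate the precision for genes that vary mainly there. A comparison of 3 arrays with 3 cannot reach an exact permutation p below 0.1, so only the fits across all genes were used. In simulated data of 18417 genes, 50 genes were shifted at each of 1.2-, 1.5-, 2- and 4-fold. The test of the difference called 4%, 62%, 84% and 100% of them, with 8 of 133 calls false. In the real data a far larger share of genes was called (20.1%). The adjustment depends on that share, so the simulated rates need not hold there.

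Named were CDKN1A, MDM2, the 12 largest shared rises and falls without overlap by the smaller effect, the 10 most positive and most negative differences, the 8 largest opposite pairs and, per list, up to 4 members with the smallest p for the difference and the largest shared rise and fall. Members and the 21 lists were chosen with earlier results of these data known.

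The main fits did not pair arrays by experiment label, which entered only as a block in an alternative fit, in both sets. In the first set, residuals of same-label WTp53 and vector arrays correlated at 0.37, 0.21 and 0.15 for experiments 0, 4 and 5. Arrays of experiments 4 and 5 correlated as much across labels (0.23 and 0.15), and those of experiment 0 with the others at −0.3 to −0.2, so the pattern sets experiment 0 apart and does not tell 4 from 5. In the second set the same-label correlations were −0.04, 0.00 and 0.09, and outside the block fit the letters were treated as labels. Alternatives were a block, other scalings, normalizations, filters and variance models, and leaving out arrays; leaving out both arrays of experiment 0 was chosen after seeing the data. Motifs were searched in promoters of RefSeq (GRCh38.p14), held for 14239 of the genes.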

Additional observations from a re-analysis of the deposited data

Results flagged for a closer look

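The 8 largest genes called in opposite directions also had a called difference of effects. They were chosen for those opposite calls, and all 75 such genes had a called difference, so it adds no support. The differences, first set minus second (log2), were −1.78 for MIR21, −1.43 for TCP11L2, −1.83 for P4HA1, −1.28 for HK2, −1.33 for PDK1, −1.48 for SNORA7B, −1.48 for SNORA3A and −0.90 for SNORD105. All 8 were negative and passed the threshold in every alternative fit of the difference in which they were tested, apart from the added minimum of 1.5-fold in both sets, which was not applied to single genes. Of the probe sets without exactly 1 gene symbol, which the comparisons above leave out, 466 of 13837 (3.37%) were called for the difference of effects.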

How the results depend on the processing

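The number of arrays and the scale of the second set limit the differences, and the cause of each change below was not tested unless fewer arrays or genes entered. The 3704 called differences became 2300 with all 18 arrays, 2399 and 1674 with the second set scaled by interquartile ranges and by effect sizes, 1323 with at least 1.5-fold, 6330 without experiment 0, and 2429 to 5083 without 1 array, with 2429 lacking the vector array and 2458 the WTp53 array of experiment e. The first set gave 3370 genes with at least 1.5-fold, and the second 3603 with all 18 arrays, 4490 with a spread shared by 12 arrays and 1248 with at least 1.5-fold. Shared rises were 656 with at least 1.5-fold, and shared falls 1448 with all 18 arrays and 382 with at least 1.5-fold. The 75 opposite calls became 30 with all 18 arrays, 120 with the replicate block, 3 with at least 1.5-fold, 138 without experiment 0 and 37 to 107 without 1 array, the lowest without the WTp53 array of experiment 4 or of experiment 5. With the replicate block 3772 differences were called, and among named genes GDF15 (adjusted p = 0.0503), NDUFA1 (0.0515) and NDUFB5 (0.0615) lost the call while CCL5, IFI44L and IFIT1 gained it.

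Among named genes, differences called in at least one of the fits compared reversed only under a change of scale. With the second set scaled by interquartile ranges GDF15 had −0.35 and SESN1 −0.28, and with joint quantile normalization GDF15 had −0.080. Scaled by effect sizes, the rises CCNA1 (−1.14), CDKN1A (−0.68), CYFIP2 (−0.92), DRAM1 (−0.65), FAM13C (−0.86), GDF15 (−1.45), KITLG (−0.77), MDM2 (−0.17), OSR2 (−1.47), PDE3A (−0.74), RRAD (−0.50), SESN1 (−1.47), SLC4A11 (−0.74), SUSD6 (−0.064), TP53I3 (−0.45) and TP53INP1 (−1.74) reversed, as did AEN (−0.173) and the falls ARL14 (0.85), H2BC7 (0.15), H4C4 (1.01), ZNF221 (0.22) and ZNF582 (0.0041). A further 10 changed sign there without being called in either fit: ATF6, CCNE1, CIART, DDIT3, H2BC11, HSPB1, ITGAM, LSS, PRKAA2 and ZNF542P. The largest shared rises were ranked by their smaller effect, that of the second set, which favours such a change of sign.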

Other observations

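Small nucleolar and Cajal body RNA genes were counted after their values were seen. Of 192 measured genes with SNORD, SNORA or SCARNA symbols, 16 rose and 37 fell in the first set, against 63 and 20 in the second. Over all genes 17.2% rose and 19.5% fell in the first set, and 18.7% and 19.7% in the second, so the falls of the first set are near the share of all genes. Their median effect was −0.04 in the first set and 0.11 in the second. The difference was positive for 5 and negative for 40, against 9.46% and 10.6% of all genes, and 6 were called in opposite directions. Several of these genes share a host transcript, so they are not independent of each other.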
